A study of Mus musculus with 13 samples.

Results

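C2C12 cells, an established line of mouse skeletal muscle precursors (myoblasts), had been starved of serum and then given it back, and the comparison described here asks what was still changed 4.5 to 6.0 h later. Per the series' design text, parallel flasks were grown in 5% fetal bovine serum, held for 24 h in 0.2%, and returned to medium with serum. Total RNA from each time point went on 1 Affymetrix mouse expression array. The late window is the 4 arrays of 4.5, 5.0, 5.5 and 6.0 h, the base is the single array of 0 h (cells still in low serum), and these are 5 of the 13 arrays of the series, chosen by their labelled times. All groups are the same untreated line, so serum and time are all that the labels vary. The comparison covered all 45037 probe sets that are not array controls and 18193 named genes. A gene's value is the mean log2 ratio over the probe sets that name only that gene.

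Cells held in low serum leave the division cycle for a reversible resting state. Serum growth factors act through receptor tyrosine kinases, MAP kinases and the serum response factor to switch on the immediate-early genes within minutes, a wave that is known to be brief. Cells that go on toward division then build ribosomes, amino acids and nucleotides and license their DNA for replication, while genes of the resting state, many of them driven by FoxO factors, are turned down.

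Each deposited value is a ratio of an array to an unstated reference for that probe set, so values are compared over time within a gene and never between genes. A difference on the log2 scale is the mean of the 4 late arrays minus the 0 h array, given with its standard error (SE) from limma, and a gene is called at a Benjamini-Hochberg adjusted p under 0.05. Of the 18193 genes, 3402 (18.7%) were called: 1601 (8.8%) were higher late and 1801 (9.9%) lower. Of the probe sets, 6607 (14.7%) were called, 3306 (7.34%) higher and 3301 (7.33%) lower. The median difference over all genes was -0.01, the median size among called genes 0.50 and the median SE 0.11. At a log2 difference of at least 1, whether called or not, 180 genes (0.989%) were higher and 117 (0.643%) lower. No time point was repeated, so the p-values set a difference against the spread of arrays within windows, which holds technical variation and change over time together, and assume that the 0 h array varies like the others.

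**Figure D1:**
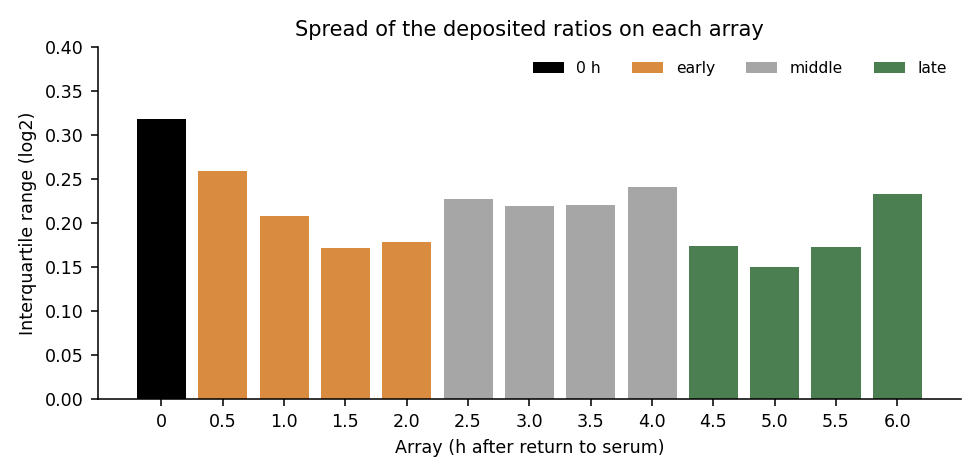
Interquartile range of the log2 ratios over 45037 probe sets on each of the 13 arrays, in log2 units, by hours after the return to serum; bar colours mark the windows. The 0 h array has the widest range, 0.318, and the 4 late arrays lie between 0.150 and 0.234.

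The 0 h array had the widest spread of ratios, with the 0.5 h array next. Its log2 ratios had an interquartile range of 0.318, against 0.150 to 0.234 on the late arrays, as the plot of array spread shows. At 0.5 h the range was 0.259 and at 1.0 h 0.209, so the spread declined over the first hour. The 0 h array lay outside all 12 other arrays for 30.4% of all genes, where the 0.5 h array did so for 22.0% and the 6.0 h array for 22.6%. Among the called genes it did so for 2289 (67.3%), a share that the call itself raises, since it selects genes that differ from 0 h. When all arrays were brought to 1 interquartile range, 1500 genes were called (780 higher, 720 lower), and after quantile normalization, which gives all arrays the same distribution, 1902 (1018 higher, 884 lower). The lone 0 h array and the low-serum state cannot be told apart.

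The gene furthest above its low-serum value was Serpinb2, an inhibitor of plasminogen activators. Its ratio was 0.0199 at 0 h and 1.53, 1.61, 1.95 and 1.46 at 4.5, 5.0, 5.5 and 6.0 h, and in the early window of 0.5 to 2.0 h it ran from 0.0206 to 0.332. The late level was 81.7-fold above 0 h, a log2 difference of 6.35 ± 1.00 (SE, adjusted p = 0.00102), and stood 4.11 above the early window (adjusted p = 0.000359). Serpinb2 rose through the early and middle windows, to 0.332 at 2.0 h and 1.00 at 3.5 h. It still stood far above its low-serum ratio at 6.0 h.

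Grem1, a secreted antagonist of bone morphogenetic proteins, had a ratio of 0.0866 at 0 h and of 1.00, 1.23, 1.24 and 1.03 in the late window. All 4 late values lay above 0 h, by 3.69 ± 0.60 (12.9-fold, adjusted p = 0.00118). Ereg, which encodes epiregulin, an EGF-family ligand, went from 0.0722 to 1.06, 1.00, 0.771 and 0.669. Its late level was 3.57 ± 0.54 above 0 h (11.9-fold, adjusted p = 0.000866), although its later values were the lower ones. Ccn2, a matricellular protein and target of YAP and serum response factor, went from 0.108 to 1.06, 0.976, 0.943 and 0.83, which is 8.78-fold (3.13 ± 0.16, adjusted p = 1.67e-07). Ccn2 had reached 3.49 above 0 h on average in the early window already and fell by 0.35 between the early and the late window (adjusted p = 0.0217).

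**Figure D2:**
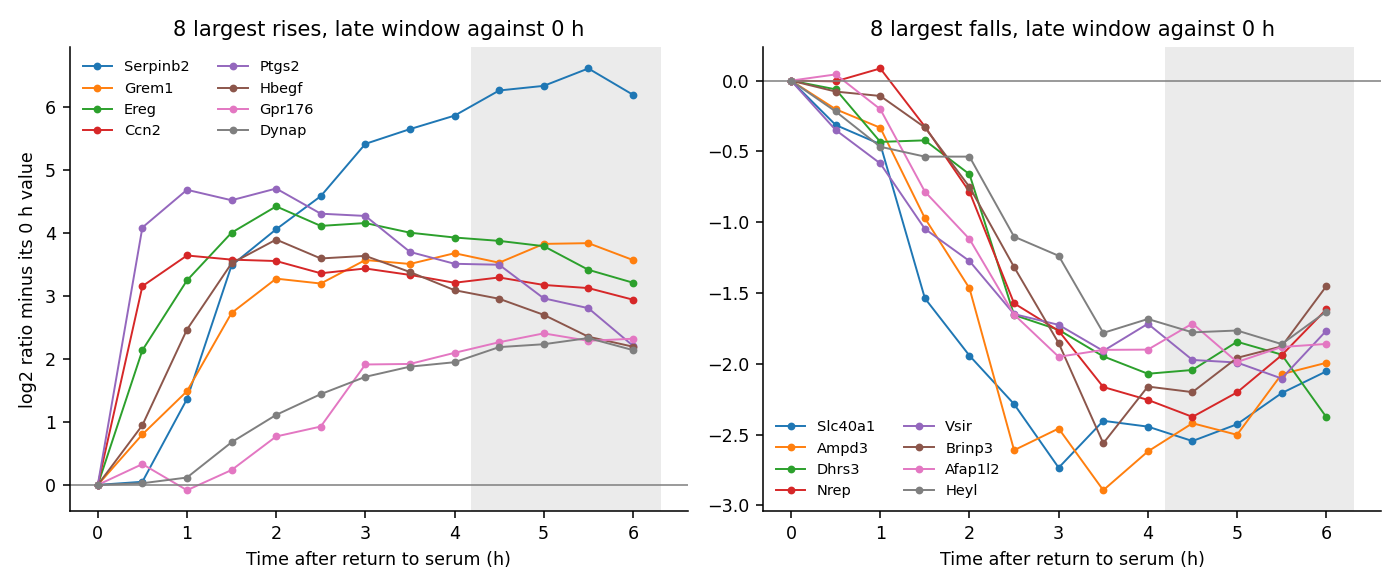
Log2 ratio minus its value at 0 h for the 8 called genes with the largest rise (left) and the 8 with the largest fall (right) on all 13 arrays, against hours after the return to serum; each point is 1 array and grey marks the late window. Serpinb2 lies 6.35 above 0 h on average in the late window, and Ptgs2, Ereg and Hbegf come down from an earlier high. All 8 falling genes lie more than 1 below 0 h from 2.5 h on.

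The size of these rises rested on how the arrays were scaled. After quantile normalization the difference was 3.47 for Serpinb2, 1.78 for Grem1, 1.48 for Ereg and 1.34 for Ccn2, and all of them were still called. Hmga2, a chromatin-bending protein of proliferating cells, had a difference of 2.02 ± 0.39 (1.25 after quantile normalization), but its 4 probe sets ranged from -0.03 to 2.95. Hbegf, a heparin-binding ligand of that family, was 2.55 ± 0.71 above 0 h (adjusted p = 0.0231), and lost its call on the quantile scale (1.12, adjusted p = 0.272). Foxs1, a forkhead factor (2.07 ± 0.65), and Sema7a, a membrane-anchored semaphorin (1.93 ± 0.51), also lost their calls on that scale, at adjusted p = 0.187 and 0.0985. Foxs1 also lost its call without the 4.5, 5.0, 5.5 or 6.0 h array, at adjusted p = 0.0608, 0.064, 0.0621 and 0.0538 in that order.

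Gpr176, Tagln and Dynap, also among the 15 largest rises, held their calls under both scalings. Gpr176, an orphan receptor coupled to G proteins, had a ratio of 0.264 at 0 h and of 1.27, 1.40, 1.29 and 1.32 late. It rose by 2.32 ± 0.34 (5.00-fold), and its late mean stood 2.01 above its early mean (adjusted p = 3.03e-05). Its ratio had reached 0.45 at 2.0 h. Tagln, an actin-binding protein of contractile cells, went from 0.311 to 1.31, 1.27, 1.43 and 1.27 (2.09 ± 0.24, 4.25-fold, adjusted p = 0.000223). Dynap, a dynactin-associated protein, rose by 2.23 ± 0.30 (4.68-fold). In each of these 3 genes every late array lay above every early array.

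The 15 genes with the largest falls were picked for their late minus 0 h difference, so late values below 0 h are largely built into that choice. None had returned to its 0 h ratio on any late array. Slc40a1, the iron exporter ferroportin, had a ratio of 4.15 at 0 h and of 0.711, 0.772, 0.899 and 1.00 in the late window. Its late level was 4.95-fold lower (-2.31 ± 0.44, adjusted p = 0.00306). Ampd3, an AMP deaminase, went from 3.98 to 0.744, 0.703, 0.946 and 1.00 (-2.25 ± 0.35, 4.75-fold lower). Dhrs3, which reduces retinaldehyde to retinol, went from 3.59 to 0.871, 1.00, 0.939 and 0.692 (-2.05 ± 0.21, 4.14-fold lower, adjusted p = 0.000126). In these 3 genes the 0 h ratio was at least 3.59 and no late ratio exceeded 1.00.

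Other falls came from signalling and stress genes. Ypel3, a small growth-restraining protein, went from 2.60 to 0.843, 0.821, 0.874 and 0.911 and was 3.01-fold lower with the smallest error of the group (-1.59 ± 0.12, adjusted p = 2.79e-05). Casp12, an inflammatory-type caspase, was 3.35-fold lower (-1.75 ± 0.17). Ralgds, an exchange factor for Ral GTPases, was 3.09-fold lower (-1.63 ± 0.21), and Vsir, an immune checkpoint receptor, 3.88-fold lower (-1.96 ± 0.25). Afap1l2, an adaptor of Src signalling, was 3.64-fold lower (-1.86 ± 0.29), Brinp3 3.66-fold lower (-1.87 ± 0.36) and Nrep 4.09-fold lower (-2.03 ± 0.32). All 7 genes were also below their early window, with adjusted p between 2.88e-06 and 0.000237.

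The immediate-early transcription factors showed the early pulse and its end. The median of the 28 listed genes was 1.34 above 0 h at 1.0 h and between 0.002 and 0.138 on the 4 late arrays. In the late window 3 of the 28 (10.7%) were higher than 0 h and 3 (10.7%) lower, near the 8.8% and 9.9% of all genes. At 1 interquartile range 2 were higher and 1 lower. By contrast 22 had fallen significantly from the early to the late window and 0 had risen further, against 9.29% and 11.7% of all genes in that comparison. Nr4a1, an orphan nuclear receptor, had a ratio of 0.70 at 0 h, 18.2 at 0.5 h and 0.761, 0.80, 0.775 and 0.869 late. Its late level differed from 0 h by 0.19 ± 0.58 (adjusted p = 0.868), or by -0.051 at 1 interquartile range, and from the early window by -3.66 (adjusted p = 2.18e-05).

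Fos, the partner of Jun in AP-1, stood at 1.14 at 0 h, reached 19.0 in the early window, and had late ratios of 0.764, 0.661, 0.618 and 0.634. The difference from 0 h was -0.78 ± 1.02 (adjusted p = 0.663), and the wide error comes with its pulse, which the fit counts as spread within the early window. In a fit of the 0 h and late arrays alone the same difference was called, but there the spread came from the late arrays only. Egr1, a zinc-finger factor, went from 2.01 at 0 h to 0.793, 0.706, 0.641 and 0.589 late, below its low-serum value on every late array (-1.57 ± 0.50, adjusted p = 0.0399). The Egr1 call was lost without the 5.0, 5.5 or 6.0 h array and at 1 interquartile range. It was also lost without the middle arrays, with a variance trend and robust prior, and with a late window of 4.0 to 6.0 h. In these settings the difference ran from -1.59 (without the 5.0 h array) to -1.37 (at 1 interquartile range).

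**Figure D3:**
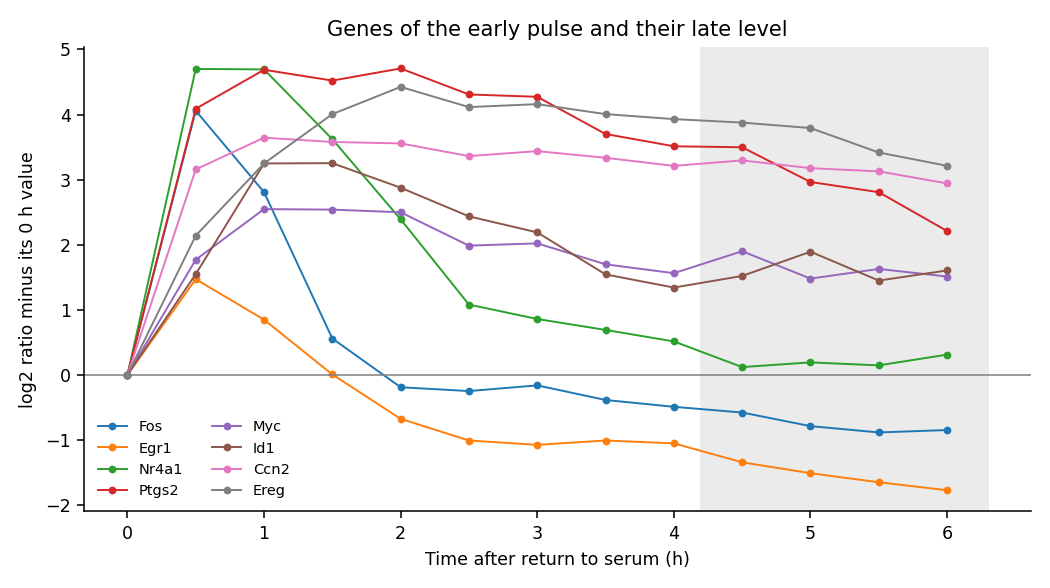
Log2 ratio minus its value at 0 h for 8 serum-responsive genes on all 13 arrays, against hours after the return to serum; each point is 1 array and grey marks the late window. On the 4 late arrays Fos and Egr1 lie below 0 h and Nr4a1 just above it (by 0.19 on average), while Ccn2, Ereg, Ptgs2, Myc and Id1 lie above it by 1.62 or more on average.

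Myc, the growth-promoting transcription factor, stayed above its low-serum ratio. Its ratio was 0.308 at 0 h and 1.15, 0.859, 0.952 and 0.878 late, all above 0 h (1.63 ± 0.26, 3.09-fold, adjusted p = 0.000982). It had still come down by 0.71 from its early level (adjusted p = 0.0056). After quantile normalization the late difference was 0.98 (adjusted p = 0.019). Fosl1, a more slowly induced Fos relative, was 1.89 ± 0.47 above 0 h (adjusted p = 0.0127) and lost its call on the quantile scale (1.10, adjusted p = 0.128).

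Ptgs2, the inducible cyclooxygenase that starts prostaglandin synthesis, had a ratio of 0.0823 at 0 h, between 1.40 and 2.15 in the early window, and 0.929, 0.642, 0.576 and 0.381 late. It was 7.31-fold above 0 h in the late window (2.87 ± 0.38, adjusted p = 0.000418) and 1.63 below its early level (adjusted p = 0.000242), so it was part of the way down. The Ptgs2 call was lost after quantile normalization (0.93, adjusted p = 0.162) but not at 1 interquartile range (1.64, adjusted p = 0.0185). Ptger4, a receptor for prostaglandin E2, rose from 0.335 to 1.02, 0.956, 0.979 and 0.962 (1.55 ± 0.22, 2.92-fold; 0.97 after quantile normalization). These were the 2 called genes among 13 measured prostaglandin genes (15.4%, against 18.7% of all genes), whose median was 0.01.

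The list of MAP kinase feedback genes, mostly inhibitors of that signalling, also holds Etv4, Etv5, Zfp36 and Zfp36l1. It gave 5 called rises among 16 genes (31.2%, against 8.8% of all genes), with a median of 0.27. Without the 5.0 h array 3 were called. Dusp5, a phosphatase of ERK, went from 0.314 to 0.991, 0.856, 0.811 and 0.705 (1.41 ± 0.28, adjusted p = 0.00335), and was 0.73 below its early level (adjusted p = 0.00739). Dusp6, another ERK phosphatase (0.88 ± 0.22), and Errfi1, a feedback inhibitor of the epidermal growth factor receptor (0.95 ± 0.23), showed the same order of levels. With quantile normalization or at 1 interquartile range 0 of the 16 genes were called, with adjusted p from 0.0621 to 0.139 for those 3 genes on the former and from 0.105 to 0.28 on the latter. Of 21 growth factors and cytokines 4 (19%) were higher and 1 (4.76%) lower, against 8.8% and 9.9% of all genes. Among the higher was Bdnf, a neurotrophin (1.27 ± 0.16, 2.42-fold, adjusted p = 0.000364). After quantile normalization, and also at 1 interquartile range, 2 of the 21 were higher and 0 lower.

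**Figure D4:**
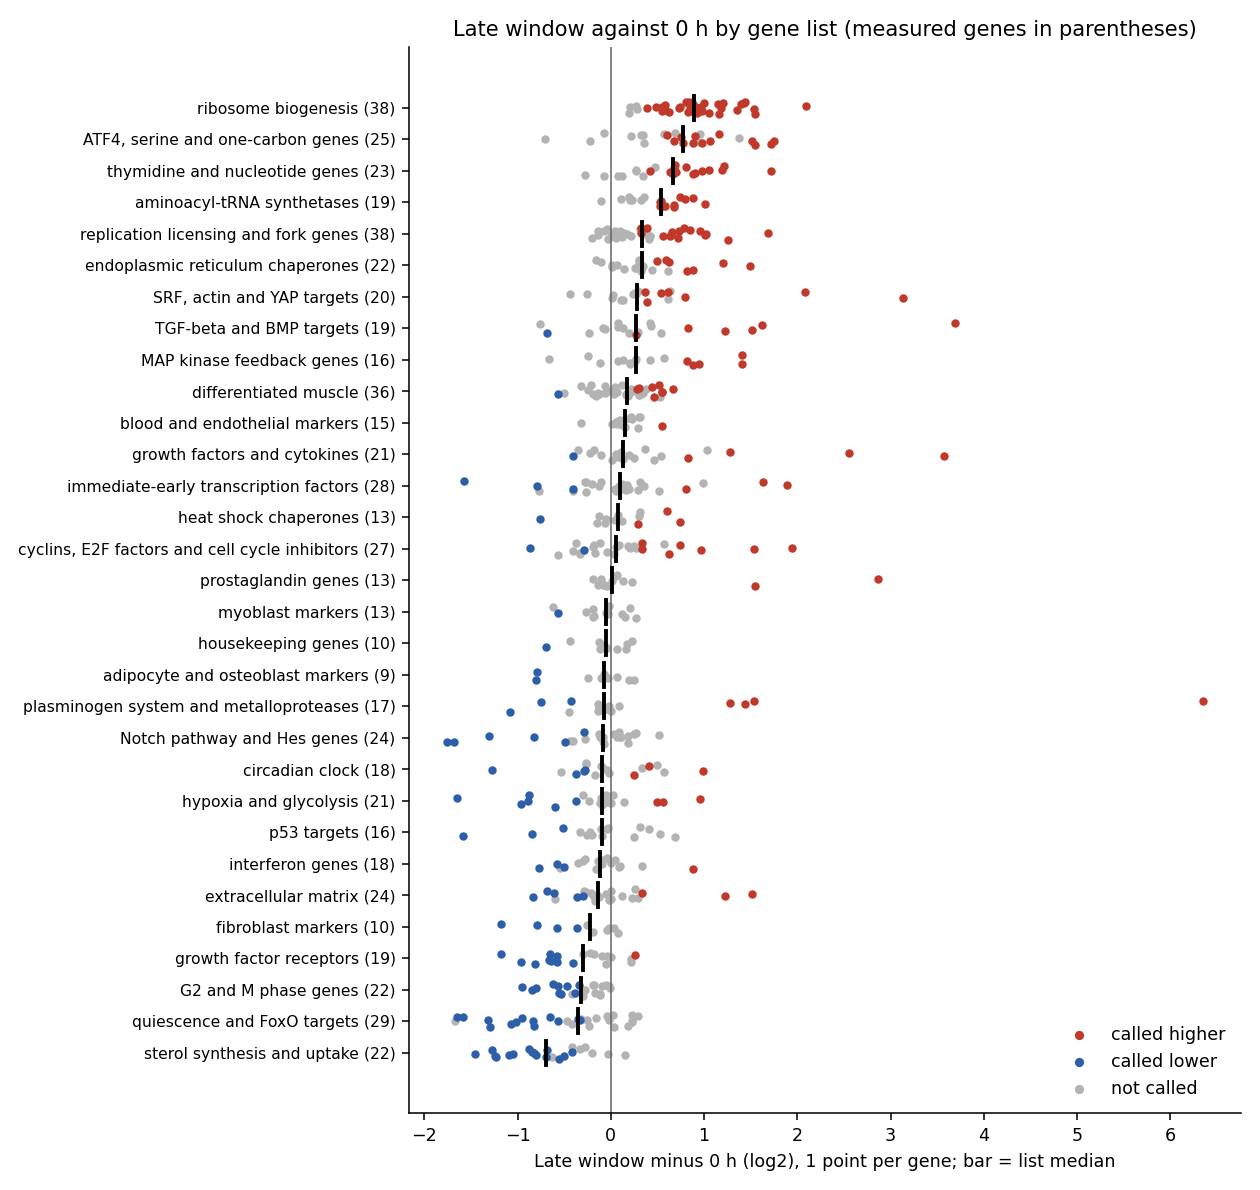
Late window minus 0 h on the log2 scale for each measured gene of 31 gene lists; red and blue points are genes called higher and lower by limma, grey points were not called, black bars are list medians, and the number of measured genes stands in parentheses. Ribosome biogenesis (median 0.889) is at the top and sterol synthesis and uptake (median -0.691) at the bottom.

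Ribosome biogenesis, the processing of ribosomal RNA and assembly of its subunits in the nucleolus, had the highest median of the 31 gene lists. Of 38 measured genes 34 were higher late and 0 lower, against 8.8% of all genes higher, and their median was 0.889. The median was -0.07 at 0.5 h, 0.57 at 2.0 h and between 0.83 and 0.96 on the late arrays, and 37 of the 38 rose from the early to the late window (11.7% of all genes). Dkc1, the pseudouridine synthase dyskerin, went from 0.343 to 1.45, 1.46, 1.43 and 1.51, with no early array above 0.706. It rose 4.27-fold (2.09 ± 0.24, adjusted p = 0.000194). Rrp12, a factor in export of ribosomal subunits, rose 2.91-fold (1.54 ± 0.25), Rrs1, an assembly factor of the large subunit, 2.90-fold (1.53 ± 0.33), and Tsr1, an assembly factor of the small subunit, 2.70-fold (1.44 ± 0.30).

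Myc binds the E-box CACGTG, so the promoters of the list were searched for it. Tsr1 is shown because it is among the 4 largest changes of its list and holds the motif. The stretch, from RefSeq on build GRCm38.p6, runs from 250 bases before to 50 after the annotated start on the plus strand at chr11:74897830-74898129, with the E-box in capitals beginning at base 25 after the start.
Tsr1: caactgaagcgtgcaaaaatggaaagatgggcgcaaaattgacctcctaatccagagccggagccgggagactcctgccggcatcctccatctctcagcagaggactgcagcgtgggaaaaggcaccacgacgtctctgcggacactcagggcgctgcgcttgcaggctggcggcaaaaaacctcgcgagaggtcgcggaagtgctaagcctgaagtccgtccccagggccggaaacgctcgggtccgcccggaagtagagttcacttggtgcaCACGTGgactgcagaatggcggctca
The E-box, which reads the same on both strands, lay in 7 of the 33 members with a promoter in the table (21.2%) and in 10.2% of 14452 genes with one. The other holders were Nop2, Pes1, Utp20, Mybbp1a, Wdr43 and Imp4. A match is a description of the letters and not a bound site.

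Lists of amino acid supply also held calls in the higher direction alone. One list joined targets of ATF4, the transcription factor of the amino acid response, with genes of serine and one-carbon metabolism. Of its 25 genes 13 were higher and 0 lower, against 8.8% and 9.9% of all genes, with a median of 0.778. Asns, which makes asparagine, had a ratio of 0.42 at 0 h, at most 0.716 in the early window and 1.29, 1.34, 1.57 and 1.47 late. It rose 3.37-fold (1.75 ± 0.28, adjusted p = 0.00115), and its late mean stood 1.55 above its early mean (adjusted p = 4.85e-05). Part of the rise came within the early window, from 0.329 at 0.5 h to 0.716 at 2.0 h. Cth, which makes cysteine, rose 3.30-fold (1.72 ± 0.23) and Mthfd2, a mitochondrial folate enzyme, 2.92-fold (1.54 ± 0.34). Bcat1, a branched-chain aminotransferase, rose 2.86-fold (1.52 ± 0.26), with probe sets from 0.70 to 2.36.

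The promoter of Asns is shown as the list's largest change, with the ATF4 composite motif TGATGNAA in capitals, beginning at base -23 from the start on the minus strand of build GRCm38.p6 at chr6:7693160-7693459, from RefSeq.
Asns: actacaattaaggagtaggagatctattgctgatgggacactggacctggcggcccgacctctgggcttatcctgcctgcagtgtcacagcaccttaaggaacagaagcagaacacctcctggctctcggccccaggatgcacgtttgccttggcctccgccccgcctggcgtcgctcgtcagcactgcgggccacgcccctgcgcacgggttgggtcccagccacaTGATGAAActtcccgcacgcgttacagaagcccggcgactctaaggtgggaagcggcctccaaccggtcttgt
On either strand, the motif lay in 5 of 22 members with a promoter in the table (22.7%), against 3.24% of 14452 genes. The others were Trib3, Chac1, Slc7a11 and Nupr1. The list was chosen to hold ATF4 targets and its members were counted whether called or not, so this share says nothing of the late change. A match is not a bound site.

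The aminoacyl-tRNA synthetases, which load amino acids on transfer RNAs, had 12 of 19 genes higher and 0 lower, with a median of 0.538. Over all genes 8.8% were higher and 9.9% lower. Tars, for threonine, went from 0.632 to 1.19, 1.27, 1.34 and 1.30 (1.01 ± 0.19, 2.01-fold, adjusted p = 0.00258). Nars, for asparagine, rose by 0.88 ± 0.17, Iars, for isoleucine, by 0.79 ± 0.21 and Hars, for histidine, by 0.74 ± 0.13. Of 22 chaperones of the endoplasmic reticulum, which fold secreted proteins, 7 were higher and 0 lower (median 0.33). Creld2, a stress-induced resident of that compartment, went from 0.404 to 1.11, 1.24, 1.19 and 1.04 (1.50 ± 0.26, 2.82-fold), and Sdf2l1 rose 2.31-fold (1.21 ± 0.24).

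**Figure D5:**
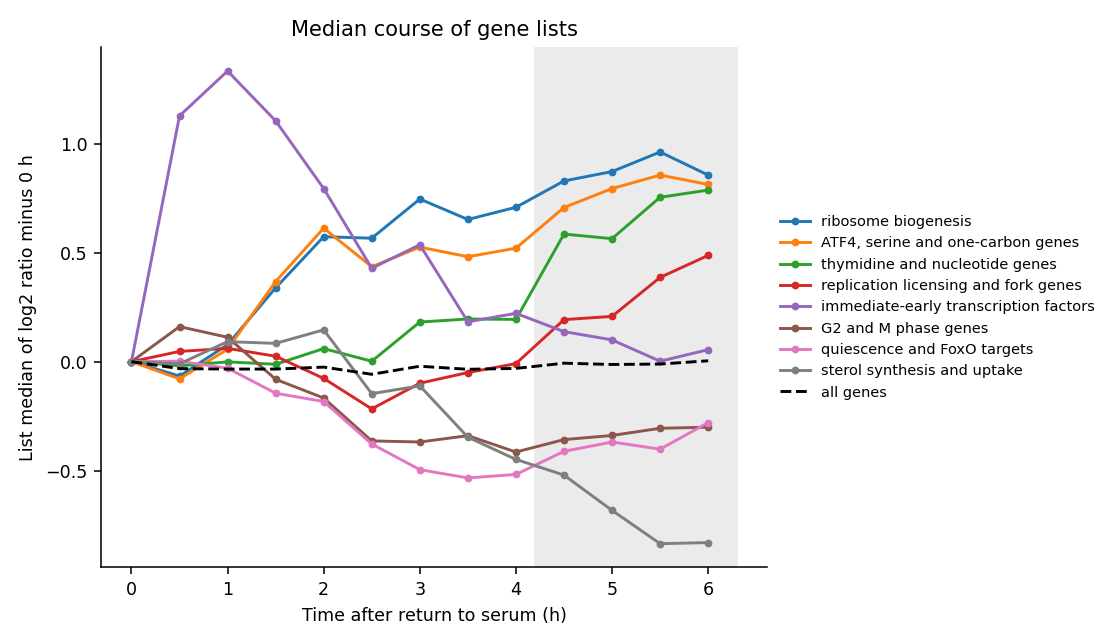
Median over the measured genes of 8 gene lists, and over all genes, of the log2 ratio minus its 0 h value on each of the 13 arrays, against hours after the return to serum; grey marks the late window. The immediate-early median peaks at 1.34 at 1.0 h, the ribosome biogenesis median rises from 1.5 h, the nucleotide and replication medians are highest in the late window, and the sterol median falls to -0.83 at 6.0 h.

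The medians of the DNA precursor and replication lists were highest in the late window, as the plot of list medians shows, although 8 of 23 and 22 of 38 of their genes were not called. The median of the 23 measured thymidine and nucleotide genes lay between -0.02 and 0.20 from 0.5 to 4.0 h. On the late arrays it lay between 0.57 and 0.79. Of these genes 15 were called higher and 0 lower, against 8.8% and 9.9% of all genes. Ung, which removes uracil from DNA, had a ratio of 0.579 at 0 h and of 1.31, 1.76, 2.17 and 2.58 late (1.71 ± 0.32, 3.28-fold, adjusted p = 0.00248). Dctd, a dCMP deaminase, stood at 0.82 at 0 h, at 0.501 to 0.533 in the early window and at 1.60, 1.69, 2.23 and 2.04 late (1.19 ± 0.19, 2.29-fold). Ctps, a CTP synthase, rose 2.32-fold and Gmps, which makes GMP, 2.08-fold, the latter with probe sets from 0.27 to 1.84.

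Replication licensing and fork genes had 16 of 38 higher and 0 lower, against 8.8% and 9.9% of all genes, with a median of 0.34. From the early to the late window 21 of the 38 rose, against 11.7% of all genes. Without the 5.5 h array 12 were higher than at 0 h, and without the 6.0 h array 13. Cdc6, a loader of the replicative helicase, had a ratio of 0.828 at 0 h and of 1.83, 2.32, 3.00 and 3.97 late, higher on each later array (1.69 ± 0.33, 3.22-fold, adjusted p = 0.00361). Rpa2, a subunit of the single-strand binding protein, went from 0.765 to 1.48, 1.59, 2.03 and 2.32 (1.25 ± 0.23, 2.38-fold). Orc2, of the origin recognition complex, rose 2.03-fold (1.02 ± 0.15). Cdt1, the partner of Cdc6 in licensing, went from 0.765 to 1.36, 1.38, 1.64 and 1.81 (1.01 ± 0.16, 2.01-fold, adjusted p = 0.00106), with probe sets from 0.18 to 1.61.

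E2F factors switch on such genes before S phase, and Cdt1 is shown because it is among the list's 4 largest changes and holds an E2F motif. The RefSeq stretch on build GRCm38.p6 lies on the plus strand at chr8:122567765-122568064, and the motif TTTGGCGC, in capitals, begins 33 bases after the start.
Cdt1: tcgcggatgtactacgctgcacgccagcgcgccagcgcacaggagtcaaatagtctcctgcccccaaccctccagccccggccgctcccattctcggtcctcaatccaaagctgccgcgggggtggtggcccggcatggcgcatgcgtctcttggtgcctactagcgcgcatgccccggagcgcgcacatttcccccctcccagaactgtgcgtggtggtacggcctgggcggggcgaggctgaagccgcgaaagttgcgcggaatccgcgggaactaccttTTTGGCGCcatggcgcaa
On either strand, these letters lay in 5 of 30 members with a promoter in the table (16.7%) and in 0.934% of 14452 genes. The others were Mcm3, Mcm5, Mcm6 and Pola1. Members were counted whether called or not, and a match is not a bound site.

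Among 27 cyclins, E2F factors and cell cycle inhibitors 7 (25.9%) were higher and 2 (7.41%) lower, against 8.8% and 9.9% of all genes. At 1 interquartile range 4 were higher and 1 lower. The list median was 0.05. Ccne2, a cyclin of the entry into S phase, went from 0.535 to 1.54, 1.69, 2.29 and 2.97 (1.94 ± 0.33, 3.83-fold, adjusted p = 0.00161). Ccnd1, the cyclin that links growth factors to the cycle, went from 0.49 to 1.40, 1.44, 1.38 and 1.48 (1.54 ± 0.16, 2.91-fold, adjusted p = 0.00013) and lay flat across the late window. Ccnd2 rose 1.96-fold (0.97 ± 0.12), with probe sets from -0.03 to 1.55. Rbl2, a pocket protein of resting cells, fell by 0.87 ± 0.19.

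The G2 and M phase list held calls in the lower direction alone, and 12 of its genes were not called. Of 22 genes 10 were lower than at 0 h and 0 higher (9.9% of all genes lower), with a median of -0.318. From the early to the late window 17 fell, against 9.29% of all genes. Ccnb2, a mitotic cyclin, went from 1.41 to 0.779, 0.775, 0.706 and 0.652 (-0.95 ± 0.13, 1.94-fold lower, adjusted p = 0.000593). Mki67, a proliferation marker, was 1.80-fold lower (-0.85 ± 0.20) and Kif20a, a mitotic kinesin, 1.74-fold lower (-0.80 ± 0.16). At 1 interquartile range 6 of the 22 were called. Against the 0.5 h array in place of 0 h, 16 were.

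Sterol synthesis and uptake had the lowest median of the 31 gene lists. Of 22 measured genes 15 were lower and 0 higher, against 9.9% and 8.8% of all genes, and the median was -0.691. The median lay between -0.01 and 0.15 up to 2.0 h, then fell to -0.52, -0.68, -0.84 and -0.83 on the late arrays. From the early to the late window 19 of the 22 fell, against 9.29% of all genes. Hmgcs1, which makes the substrate of HMG-CoA reductase, had a ratio of 1.47 at 0 h, 1.66 to 1.86 in the early window and 0.638, 0.548, 0.469 and 0.506 late. It was 2.74-fold lower than at 0 h (-1.45 ± 0.24, adjusted p = 0.0013). Mvd, of the mevalonate pathway, went from 1.39 to 0.761, 0.594, 0.485 and 0.488 (-1.28 ± 0.20, 2.42-fold lower, adjusted p = 0.00101). Stard4, a sterol carrier, was 2.36-fold lower (-1.24 ± 0.27).

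Insig1, which holds the activator SREBP in the endoplasmic reticulum when sterol is plentiful, went from 1.00 to 0.513, 0.492, 0.272 and 0.48 (-1.23 ± 0.39, adjusted p = 0.0404). The Insig1 call needed the 5.5 h array (-1.01 when it was left out, adjusted p = 0.0657) and the 6.0 h array (0.0502 when it was left out), and missed at 1 interquartile range, at 0.0515. Hmgcs1 is shown as the list's largest fall, with the sterol regulatory motif CACCCCAC in capitals beginning at base -136 from the start, on the plus strand of build GRCm38.p6 at chr13:119690101-119690400, from RefSeq.
Hmgcs1: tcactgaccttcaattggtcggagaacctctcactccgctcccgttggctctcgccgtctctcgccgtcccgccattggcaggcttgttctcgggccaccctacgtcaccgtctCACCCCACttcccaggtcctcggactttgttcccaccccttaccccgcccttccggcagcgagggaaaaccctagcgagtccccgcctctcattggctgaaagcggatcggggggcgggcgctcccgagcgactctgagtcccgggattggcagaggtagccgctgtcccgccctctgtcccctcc
On either strand, these exact letters lay in 1 of 18 members with a promoter in the table (5.56%) and in 3.76% of 14452 genes, so the list was near the background.

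Genes of the resting state and FoxO targets had 13 of 29 lower and 0 higher, against 9.9% and 8.8% of all genes (median -0.355). Bnip3, a receptor for removal of mitochondria, went from 2.08 to 0.759, 0.644, 0.63 and 0.628 (-1.65 ± 0.17, 3.14-fold lower, adjusted p = 0.000126). Sesn3, a sestrin that restrains mTORC1, went from 1.74 to 0.661, 0.721, 0.675 and 0.758 (-1.31 ± 0.21, 2.48-fold lower). Sesn1, its relative, was 3.00-fold lower (-1.59 ± 0.36), with probe sets from -2.54 to 0.01. Ccng2, a cyclin of arrested cells, had a ratio of 3.32 at 0 h and of 0.959, 0.993, 1.10 and 1.12 late, a difference of -1.67 ± 0.62 that was not called (adjusted p = 0.0748), with an early window from 0.481 to 2.58. In a fit of the 0 h and late arrays alone Ccng2 was called, but there the spread came from the late arrays only.

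Receptors for growth factors were lower in 9 of 19 cases and higher in 1, against 9.9% and 8.8% of all genes (median -0.295). Pdgfrb, a platelet-derived growth factor receptor, went from 1.92 to 0.806, 0.808, 0.814 and 0.976 (-1.18 ± 0.20, 2.27-fold lower, adjusted p = 0.00152). Ghr, the growth hormone receptor, was 1.95-fold lower (-0.97 ± 0.11, adjusted p = 0.00021) and Erbb3 1.58-fold lower (-0.66 ± 0.13). Fgfr1 was 1.76-fold lower (-0.82 ± 0.20), with probe sets from -1.17 to -0.18, and was not called from unsuffixed probe sets alone (-0.18, adjusted p = 0.563).

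The series was titled for oscillating genes of somite formation. Of 24 Notch pathway and Hes genes 6 (25%) were lower late and 0 higher, against 9.9% and 8.8% of all genes. After quantile normalization or at 1 interquartile range 4 were lower and 0 higher. The list median was -0.08, against -0.01 over all genes, so the list is described by its members. Heyl, a repressor that Notch induces, went from 2.64 to 0.77, 0.777, 0.727 and 0.852 (-1.76 ± 0.20, 3.38-fold lower, adjusted p = 0.000223). Dtx4, a Deltex ubiquitin ligase, was 3.20-fold lower (-1.68 ± 0.23) and Notch3, a receptor, 2.48-fold lower (-1.31 ± 0.30). Dll1, a ligand, was 1.76-fold lower (-0.82 ± 0.11) and differed from 0 h by -0.82 in the early window too, a value that shares the 0 h array. Hes1, the oscillating repressor, had a ratio of 0.865 at 0 h, 0.653 to 2.23 in the early window and 1.13, 1.20, 1.23 and 1.39 late, a difference of 0.51 ± 0.41 that was not called (adjusted p = 0.427). A fit of the 0 h and late arrays alone called Hes1, but its spread came from the late arrays only, so it cannot settle the matter.

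Targets of serum response factor, actin signalling and YAP had 7 of 20 higher and 0 lower, against 8.8% and 9.9% of all genes. Ankrd1, a muscle repeat protein, was among them at 1.74-fold (0.80 ± 0.13, adjusted p = 0.000982), beside Ccn2 and Tagln. Of 19 targets of TGF-beta and bone morphogenetic proteins 6 (31.6%) were higher and 1 (5.26%) lower. Id3, an inhibitor of helix-loop-helix factors, went from 0.331 to 0.852, 1.08, 0.882 and 1.00 (1.52 ± 0.27, 2.86-fold, adjusted p = 0.00186) and was 1.47 below its early level (adjusted p = 4.73e-05). At 1 interquartile range the Id3 difference was 1.01 (adjusted p = 0.0888), and 1 gene of the list was higher and 0 lower. After quantile normalization 2 were higher and 1 lower. Id1 was 1.62 ± 0.51 above 0 h (adjusted p = 0.0385), a call that was lost without each of the late arrays in turn, at adjusted p = 0.0532, 0.0708, 0.0549 and 0.0585 in order of time.

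Of 24 extracellular matrix genes 3 (12.5%) were higher and 5 (20.8%) lower, against 8.8% and 9.9% of all genes, and 16 were not called (median -0.14). At 1 interquartile range 1 was higher and 3 lower, so the list is described by its members. Has2, a hyaluronan synthase, went from 0.35 to 1.12, 0.997, 1.04 and 0.866 (1.51 ± 0.27, 2.85-fold; 1.00 after quantile normalization), while Col6a1 fell by 0.83 ± 0.11 (1.78-fold) and Col1a1 by 0.68 ± 0.16 (1.60-fold), both collagens. Of 17 genes of the plasminogen system and metalloproteases 4 were higher and 3 lower. Plaur, the urokinase receptor, went from 0.454 to 1.35, 1.28, 1.36 and 1.27 (1.53 ± 0.23, 2.89-fold, adjusted p = 0.000835), and Timp1, a metalloprotease inhibitor, rose 2.43-fold (1.28 ± 0.24).

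The lists that follow held few calls, to be read beside the 8.8% of all genes that were higher and the 9.9% that were lower. Of 21 hypoxia and glycolysis genes 3 (14.3%) were higher and 6 (28.6%) lower, with Ndrg1, a stress-regulated gene (-0.96 ± 0.21), and Hk1, a hexokinase (-0.88 ± 0.15), beside Bnip3. At 1 interquartile range 0 were higher and 5 lower, and without the 4.5 h array 1 and 6. Of 18 circadian clock genes 3 (16.7%) were higher and 4 (22.2%) lower, and of these Dbp, an output factor of the clock, was 2.43-fold lower (-1.28 ± 0.23, adjusted p = 0.00206). After quantile normalization or at 1 interquartile range 0 clock genes were higher and 1 lower. Leaving out the 5.0 or the 5.5 h array, 0 clock genes were higher and 2 lower, and leaving out the 4.5 or the 6.0 h array, 1 was higher and 3 lower. Of 16 p53 targets 0 were higher and 3 (18.8%) lower (1 lower after quantile normalization and 1 at 1 interquartile range). Of 13 heat shock chaperones 3 (23.1%) were higher and 1 (7.69%) lower, with Hspd1, the mitochondrial chaperonin, at 1.68-fold (0.75 ± 0.13, adjusted p = 0.002) and Bag3 1.69-fold lower (-0.76 ± 0.16).

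The labelled cell type could be followed through its markers' changes only, since ratios hold no level. Of 13 myoblast markers 0 were higher and 1 was lower, Cdh15 (-0.57 ± 0.12, adjusted p = 0.00416), and Myf5, a determination factor, differed by -0.27 ± 0.20 (adjusted p = 0.391). Of 36 genes of differentiated muscle 8 (22.2%) were higher and 1 (2.78%) lower, against 8.8% and 9.9% of all genes, with a median of 0.17. Tnnt3, a fast troponin, went from 0.825 to 1.19, 1.19, 1.34 and 1.54 (0.67 ± 0.18, adjusted p = 0.0193). Without the 5.0 h array 5 were higher and 1 lower, without the 5.5 h array 3 and 1, without the 6.0 h array 3 and 2, and 3 of 36 higher is near the share over all genes.

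Most markers of other cells were not called. Of 10 listed fibroblast markers 0 were higher and 4 lower, but 1 of these, Tcf4, is the gene of a helix-loop-helix factor and not the fibroblast marker known by that name, whose gene is Tcf7l2. Without it 3 of 9 were lower, Pdgfra (-0.58 ± 0.10), Pdgfrb and Dcn (-0.36 ± 0.09, adjusted p = 0.0124, and 0.0924 at 1 interquartile range). The 2 Dcn probe sets differed in sign, at -0.791 and 0.069. Of 15 blood and endothelial markers 1 was higher (2 without the 6.0 h array), the macrophage gene Adgre1 (0.55 ± 0.13, adjusted p = 0.0085, and 0.0652 at 1 interquartile range), and of 9 adipocyte and osteoblast markers 2 were lower, Lpl (-0.79 ± 0.11) and Cebpa (-0.81 ± 0.22, adjusted p = 0.0213, and 0.0979 at 1 interquartile range). Over all genes 8.8% were higher and 9.9% lower, and counts this small in lists of this size are not read as a shift of the list. Whether these markers had a part in any result was not tested. Of 10 housekeeping genes 0 were higher and 1 was lower (0 without the 5.5 h array), with a median of -0.05. The array's own Gapdh probe sets differed by -0.05 at the 3' end and -0.04 at the 5' end, and its Actb probe sets by 0.11 and 0.17. Outside the controls, the gene Actb differed by -0.44 and was not called, with probe sets from -0.95 to 0.07. Probe sets for 18S ribosomal RNA, controls that gene tests left out, differed by 0.888 at the 3' end, 0.664 in the middle and 1.638 at the 5' end. The 5' probe set stood at 0.849 at 0 h and at 0.889, 3.92, 2.67 and 5.24 late. It also swung before the late window, from 0.397 at 3.0 h to 2.14 at 4.0 h. Whether 18S ribosomal RNA had a part in any result was not tested.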

How the data were processed

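Per the labels, biotin-labelled RNA of 13 time points was hybridised to 1 Affymetrix array each, and the authors deposited linear ratios per probe set. RMA was used, per the submitters' processing notes; what each value was divided by is not stated in the sources at hand. No filter on dim probe sets could be made, and scan dates were not used here. Of 45101 probe sets 64 controls were left out. Of the rest 34945 had 1 gene symbol, 932 several and 9160 none; 34741 gene IDs were found in the RefSeq table, which changed 0 symbols, and 9010 genes had several probe sets. Precision is limited by the number of arrays.

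Log2 ratios were fitted with limma 3.58.1 in R 4.3.3 (two-sided, window means of 0 h, 0.5 to 2.0 h, 2.5 to 4.0 h and 4.5 to 6.0 h over all 13 arrays, eBayes, Benjamini-Hochberg over all features). Late minus 0 h and early minus 0 h share the 0 h array, and late minus early shares the late arrays. Tables came from pandas 2.3.3 and numpy 2.4.6 under Python 3.11.15, figures from matplotlib 3.10.9. Named genes were the 15 largest called rises and falls with established symbols, up to 4 members of each list by size of change, and 7 serum or clock genes. The comparison, lists and members were chosen with earlier results of these data known. Simulated data for 18193 genes, 67 changed at each size, had independent noise, equal on all arrays of a gene, 0 h included. On them, late minus 0 h recovered 56.7% of changes of 0.5, 95.5% of 1 and 100% of 2 (log2), and called 9 unchanged genes. The simulation gave the 0 h array no wider spread and neighbouring times no likeness. It therefore cannot show how many calls a 0 h array that stands apart would add. Alternatives were quantile normalization, median centring, a variance trend with a robust prior, other arrays in the fit, other windows, other gene values, each late array left out and a minimum change of 1. Added after seeing the data were 1 interquartile range for all arrays, the 0.5 h array as base, and leaving out probe sets under 1 on all arrays.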

Additional observations from a re-analysis of the deposited data

Results flagged for a closer look

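Over the 4 late arrays, 8 of 139 named genes had 1 array that stood apart from the other 3 (a gap to the nearest value over the range above Dixon's critical value), and chance flags about 1 gene in 20. The array of 6.0 h was the one apart for Cth (1.65, the others 1.26 to 1.28), Pdgfrb (0.976, the others 0.806 to 0.814) and Tnc (0.731, the others 0.906 to 0.925). The array of 5.5 h was apart for Ankrd1 (1.13, the others 1.00 to 1.02), Rrp12 (1.44, the others 1.22 to 1.23) and Insig1 (0.272, the others 0.48 to 0.513). Bnip3 was apart at 4.5 h (0.759, the others 0.628 to 0.644), and Cdh15 at 5.0 h (0.889, the others 0.993 to 1.00).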

How the results depend on the processing

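Every late minus 0 h value has the single 0 h array as its base. No paired analysis was possible because each time point has 1 array and the labels carry no replicate numbers. Quantile normalization called 1902 genes and 3312 probe sets and put 162 genes at least 1 apart; at 1 interquartile range these were 1500, 2587 and 149. With a minimum log2 change of 1, 289 of the called genes were counted (174 higher, 115 lower). G2 and M phase genes gave 6 calls at 1 interquartile range and 16 against the 0.5 h array. Leaving out each late array gave 2783 to 3131 genes, 5236 to 6165 probe sets and 289 to 306 genes at least 1 apart. Of 113 called named genes, 83 kept their call in every setting other than the 0.5 h base; 17 lost it with quantile normalization, 25 at 1 interquartile range and 11 on leaving out a late array. Against the 0.5 h array, which already holds early induced RNA, signs turned for Ankrd1 (-0.028), Ccn1 (-1.18), Ccn2 (-0.022), Des (-0.15), Dusp5 (-0.32), Dusp6 (-0.18), Errfi1 (-0.86), Id3 (-0.997), Ier3 (-1.87), Lyz2 (-0.04), Myc (-0.14), Nfil3 (-0.61), Nr4a1 (-4.51), Pecam1 (-0.03), Plk3 (-0.27), Ptger4 (-0.13), Ptgs2 (-1.22) and Tnc (-0.27). With unsuffixed probe sets Ccn1 turned to -0.14 and Hpgd to 0.001, and at 1 interquartile range Nr4a1 to -0.051; none of these 3 was called.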

Other observations

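Interferon genes, a list that no comparison above describes, held few calls: of 18 measured genes 1 was higher in the late window and 3 were lower, with a median of -0.12 (8.8% and 9.9% of all genes). Usp18, which removes the ubiquitin-like ISG15 from proteins, had a ratio of 0.817 at 0 h and of 1.50, 1.19, 1.59 and 1.82 late (0.88 ± 0.20, limma adjusted p = 0.00719), and 0.74 with a late window of 4.0 to 6.0 h (adjusted p = 0.0654). Stat2, a transducer of interferon signals, went from 1.38 to 0.899, 0.912, 0.947 and 0.958 (-0.58 ± 0.09, adjusted p = 0.000923), with probe sets at -1.055 and -0.096. Oasl2, an interferon-induced gene, went from 1.72 to 0.937, 1.00, 0.908 and 1.21 (-0.77 ± 0.19, adjusted p = 0.0107, and 0.0562 at 1 interquartile range). At 1 interquartile range 1 of the 18 was higher and 1 lower.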
